A study of Danio rerio with 6 samples.

Results

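The genes examined here build, cut and rebuild actin filaments in the larval zebrafish heart. They are the 64 rows of a 31701-row gene table whose symbol begins with the name of a cytoplasmic actin (actb), an Arp2/3 complex subunit (arpc, actr), a formin (diaph, daam, fmnl, fhod), a WAVE or WASP activator (wasf, wasl), an Ena/VASP protein (enah, evl, vasp), a monomer-binding protein (pfn, cap, twf), a severing protein (cfl, wdr1) or capping protein (capz). The spelling rule also caught 6 WD-repeat genes (*wdr11*, *wdr12*, *wdr13*, *wdr17*, *wdr18* and *wdr19*) that are different genes from *wdr1*, so 58 rows fit the description and the 6 are given apart. Hearts labelled mutant and hearts of wild-type (WT) siblings were taken by hand from larvae at 57 to 59 hours post fertilization, as 3 biological replicates per genotype of 23 pooled hearts each. The series' title names Wwtr1, a transcriptional coactivator of the Hippo pathway also called Taz. The labels used here give neither the mutant allele nor how many copies of it the siblings carried, and they list no treatment of either group.

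Actin filaments grow from a new end that a nucleator must first make. The Arp2/3 complex, switched on by WAVE and WASP proteins, starts a branch on the side of an older filament, whereas formins start and lengthen unbranched filaments. Profilin delivers actin monomers to growing ends, Ena/VASP proteins keep those ends growing and capping protein closes them. Cofilin with Wdr1 (also called Aip1) cuts old filaments, and cyclase-associated protein and twinfilin help return monomers to the pool. In heart muscle the same machinery serves cell shape and junctions as well as the assembly of sarcomeres.

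Values are read counts that the authors scaled between libraries and gave as whole numbers, here called normalised counts. They are not divided by gene length, so levels are compared between genotypes and not between genes. A log2 difference is mutant minus WT on the log2(value + 1) scale, tested by limma with Benjamini-Hochberg adjustment over the 18901 genes with 3 or more libraries at 10 or above. Library totals were 19187058 to 25227868 in WT and 21068538 to 21968397 in mutant hearts. The gene named in the title, *wwtr1* (ENSDARG00000067719, chromosome 22, 38095983 to 38161452, GRCz10 assembly), stood at 362, 416 and 471 in WT and 128, 151 and 100 in mutant libraries, a log2 difference of −1.72 (SE 0.155, adjusted p = 0.000251). Every mutant value was below every WT value.

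Of the 64 rows, 60 were tested, and 0 passed an adjusted p of 0.05. Of all 18901 genes tested, 7 passed, or 0.0370%. The lowest adjusted p among the 60 was 0.575. An unadjusted p under 0.05 was found for 2 of the 60 (*daam1a* and *wdr18*), or 3.33%, against 6.60% of all genes tested. The 6 libraries split cleanly by genotype for 7 of the 60, with all 3 mutant values on one side of all 3 WT values, which is 11.7% against 11.1% of all genes tested. Of these, 5 were lower in mutant hearts, 8.33% of the 60 against 5.53% of all genes tested, and 2 were higher, 3.33% against 5.57%. Among genes with a mean of at least 50, the groups did not overlap in 6 of 55 rows here, or 10.9%, against 12.4% of 11616. At that mean an unadjusted p under 0.05 was found for 3.64% against 7.78%.

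How large a difference the data could have missed is given by the 95% intervals, each for a single gene and not adjusted over the 60. For 50 of the 60 the whole interval lay within a 1.5-fold change either way, and for 26 it lay within a 1.25-fold change. The other 10, with intervals reaching past 1.5-fold, were *arpc1b*, *FMNL1*, *fmnl1a*, *wasf1*, *evlb*, *vaspa*, *wdr12*, *wdr13*, *wdr17* and *wdr18*. Of all 18901 genes tested, 8797 had intervals within 1.5-fold and 2664 within 1.25-fold. Among genes with a mean of at least 50, these were 50 and 26 of the 55 rows here, against 8666 and 2664 of 11616. The differences of the 60 ranged from −0.50 (*wdr18*) to 0.26 (*wdr17*). Their median was −0.05, with 39 below 0 and 21 above, beside a median of −0.0029 over all genes tested, of which 50.6% lay below 0. Without the 6 WD-repeat genes the median was −0.04, with 34 below and 20 above 0.

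**Figure D1:**
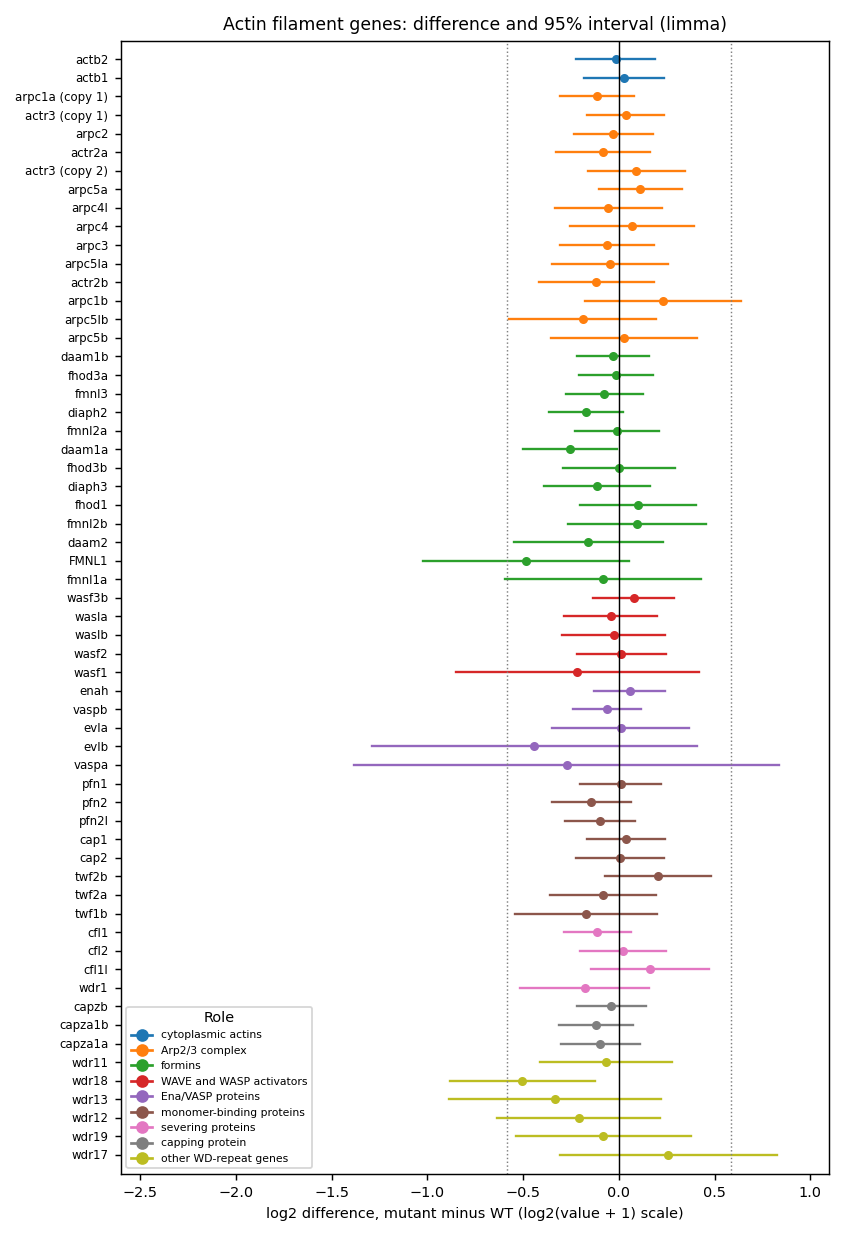
Log2 difference (mutant minus WT, horizontal axis) of the 60 tested genes, ordered by role, with the 95% interval from limma as a bar and colours for the role; dotted lines mark a 1.5-fold change either way. For 50 of the 60 genes the interval stays between the dotted lines, and 2 intervals, those of *daam1a* and *wdr18*, lie wholly below 0.

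The 2 cytoplasmic actin genes supply the monomer itself. *actb1* (ENSDARG00000037746, chromosome 1, 7964988 to 7968621) stood at 10359, 11997 and 11123 in WT and 11603, 10355 and 12221 in mutant libraries. The groups overlapped throughout, and the log2 difference was 0.03 (SE 0.0975, adjusted p = 0.983), with an interval from 0.883-fold to 1.18-fold. *actb2* (ENSDARG00000037870, chromosome 3, 40384249 to 40387946) stood at 14225, 16444 and 14774 in WT and 14578, 14348 and 15954 in mutant libraries. Its lowest and highest values were both WT, and the difference was −0.02 (SE 0.0971, adjusted p = 0.991), with an interval from 0.856-fold to 1.14-fold. The pair encode nearly identical actins, so reads from shared stretches could have been counted for either gene or dropped. Their sum does not depend on how such reads were divided between the pair, though it lacks any reads that were dropped. The sum was 26307 ± 1961 (SD, n = 3) in WT and 26353 ± 1742 (n = 3) in mutant libraries. In whole-heart RNA, fewer cells of a type and less RNA in each cell cannot be told apart.

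The Arp2/3 complex has 7 kinds of subunit, the actin-related proteins Arp2 (*actr2*) and Arp3 (*actr3*) and 5 scaffold subunits (*arpc1* to *arpc5*), most with duplicate genes in zebrafish. Of 16 rows, 14 were tested, 6 differences lay above 0 and 8 below, and the median was −0.04. The summed normalised count of the complex was 4661 ± 258 in WT and 4608 ± 175 in mutant libraries (n = 3 each). The groups therefore differed by less than the spread between replicates.

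The Arp2/3 row with the highest mean count was *arpc1a* on chromosome 3 (ENSDARG00000008383, 40654252 to 40662597), a scaffold subunit that holds the complex to its activators. It stood at 772, 702 and 691 in WT and 678, 657 and 662 in mutant libraries, so every mutant value was below every WT value. The difference, −0.11 on the log2 scale, was not past the threshold (SE 0.0896, adjusted p = 0.880), and it was −0.07 without WT replicate 1. Its neighbour *arpc1b*, whose human counterpart is known from blood cells, stood at 102, 89 and 72 in WT and 112, 84 and 113 in mutant libraries. Here the mutant mean was the higher of the 2 and the groups overlapped (log2 difference 0.23, SE 0.190, adjusted p = 0.896).

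Among the other scaffold subunits, *arpc5a* stood at 331, 351 and 334 in WT and 385, 359 and 355 in mutant libraries. It was the 1 Arp2/3 gene with every mutant value above every WT value, by a log2 difference of 0.11 (SE 0.101, adjusted p = 0.919). *arpc2*, one of the pair of subunits that sit on the mother filament, stood at 645, 609 and 541 in WT and 589, 573 and 593 in mutant libraries. *arpc3* stood at 266, 239 and 278 in WT and 260, 248 and 240 in mutant libraries. Both overlapped between the groups, as did *arpc4*, *arpc4l*, *arpc5b*, *arpc5la* and *arpc5lb*, whose differences ranged from −0.19 to 0.07.

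The actin-related subunits form the first pair of a new filament. *actr2a* stood at 483, 626 and 567 in WT and 553, 468 and 557 in mutant libraries, and *actr2b* stood at 128, 141 and 147 against 123, 127 and 133. Neither passed (log2 differences −0.08 and −0.12). *actr3* appears in the table at 2 positions on chromosome 9, 56882048 to 56885117 on the plus strand and 56738417 to 56743357 on the minus strand, and reads shared by the copies could have been split. Summed over the copies it stood at 1040, 1216 and 997 in WT and 1077, 1120 and 1175 in mutant libraries, with overlapping groups. *actr3b* (values 3 to 8) and a row called *arpc1a* on chromosome 25 (values 0 and 1) were too low to test.

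**Figure D2:**
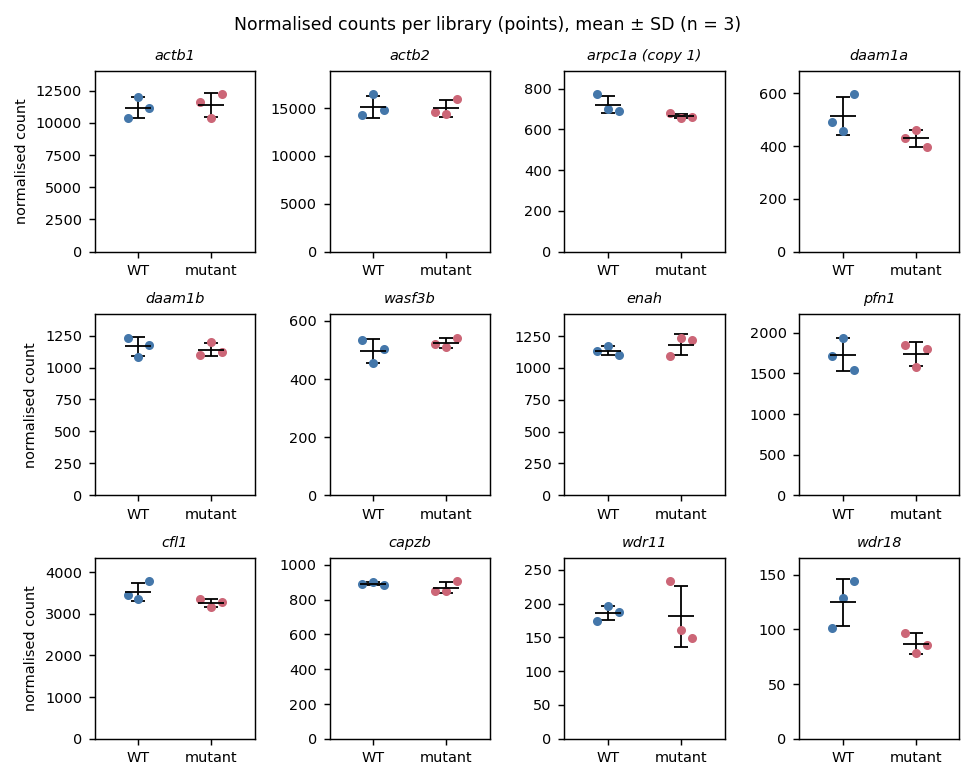
Normalised counts (vertical axis, from 0) of 12 genes in each library, with points for libraries and bars for the mean ± SD of 3 WT and 3 mutant libraries. The group means stand close in most panels, and the points separate by genotype for *arpc1a*, *cfl1* and *wdr18*.

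Of the 13 formins, 10 had differences below 0, the median was −0.08, and 0 passed. Their summed normalised count was 5888 ± 268 in WT and 5620 ± 302 in mutant libraries (n = 3 each), a gap about as large as the spread between replicates. *daam1a* (ENSDARG00000015059, chromosome 17, 14459424 to 14551104) encodes a formin that links Wnt and planar polarity signals to actin. It stood at 492, 457 and 596 in WT and 431, 462 and 397 in mutant libraries. Its groups overlapped, because mutant replicate 2 exceeded WT replicate 2, and 1 WT library was well above the other values. The log2 difference was −0.25 (SE 0.115, unadjusted p = 0.0441, adjusted p = 0.754), with an interval from 0.708-fold to 0.995-fold, and it was −0.14 without WT replicate 3. Its paralogue *daam1b* (ENSDARG00000009689, chromosome 20, 21914915 to 22095228), the formin with the highest mean count, stood at 1233, 1086 and 1178 in WT and 1099, 1202 and 1122 in mutant libraries. The groups overlapped and the difference was −0.03 (SE 0.0870, adjusted p = 0.980).

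*diaph2*, of the diaphanous group, was the 1 formin whose groups did not overlap. It stood at 792, 732 and 721 in WT and 628, 679 and 685 in mutant libraries, which came to −0.17 on the log2 scale and missed the threshold (SE 0.0904, adjusted p = 0.795). *diaph3* stood at 195, 205 and 212 in WT and 207, 195 and 165 in mutant libraries, with overlapping groups.

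The Fhod formins are known for their part in building heart muscle sarcomeres. *fhod3a* stood at 1191, 1097 and 1140 in WT and 1033, 1232 and 1140 in mutant libraries, and the difference was −0.01 (SE 0.0905, adjusted p = 0.993). Mutant replicates 1 and 2 lay at opposite ends of this range. *fhod3b* (log2 difference 0.00) and *fhod1* (0.10) also overlapped between the groups.

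The Fmnl formins work at the cell cortex and in protrusions. *fmnl3*, known from growing vessels in zebrafish, stood at 697, 721 and 763 in WT and 645, 751 and 676 in mutant libraries, with a log2 difference of −0.08. *fmnl2a*, *fmnl2b* and *fmnl1a* overlapped as well, with differences from −0.08 to 0.10, as did the third Daam gene, *daam2*, at −0.16. *FMNL1*, written in capitals in the annotation, belongs to a gene known from leukocytes and stood at 86, 66 and 111 in WT and 76, 42 and 71 in mutant libraries. Its log2 difference of −0.48 had a wide interval, from 0.492-fold to 1.04-fold (SE 0.253, adjusted p = 0.793). Beside it, 12 of 14 tested leukocyte marker rows were below 0, with a median of −0.30 and a count summed over all 25 rows of 932 to 1266 in WT and 748 to 1025 in mutant libraries; 0 of the 25 stood at 0 in every library. These rows are not all separate markers. Rows named *mfap4* recur, and those at 58296055 to 58312470 and 58296087 to 58314908 overlap on the plus strand of chromosome 1. One of the leukocyte markers, the actin bundler *lcp1*, stood at 190, 160 and 159 in WT and 114, 163 and 97 in mutant libraries (log2 difference −0.47, adjusted p = 0.675). By its name *fmnl1a* is also an Fmnl1 gene, and it stood at 55, 49 and 48 in WT and 43, 63 and 40 in mutant libraries (log2 difference −0.08). The part of leukocytes in the *FMNL1* values was not tested.

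WAVE and WASP proteins switch on the Arp2/3 complex at the membrane. Of 6 rows, 5 were tested and their median was −0.03. *wasf3b* (ENSDARG00000062948, chromosome 24, 21395668 to 21433091), the row with the highest mean count, stood at 535, 454 and 503 in WT and 520, 509 and 542 in mutant libraries (log2 difference 0.08, SE 0.0985, adjusted p = 0.949). *wasf2* stood at 276, 286 and 277 in WT and 269, 274 and 305 in mutant libraries. The N-WASP genes *wasla* (369, 319 and 376 against 379, 315 and 339) and *waslb* (300, 320 and 282 against 315, 328 and 248) overlapped as well, and so did *wasf1* (32, 33 and 50 against 44, 26 and 29). *wasf3a* was too low to test, at 1, 7 and 1 in WT and 3, 3 and 20 in mutant libraries, where 1 mutant library held most of the count.

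Ena/VASP proteins hold filament ends open for growth. *enah* (ENSDARG00000032049, chromosome 20, 36517068 to 36714434) stood at 1134, 1172 and 1104 in WT and 1092, 1237 and 1221 in mutant libraries. The lowest and the highest values were both mutant, and the difference was 0.06 (SE 0.0861, adjusted p = 0.960), with an interval from 0.915-fold to 1.18-fold. *vaspb* stood at 1054, 1103 and 1036 in WT and 1034, 987 and 1038 in mutant libraries, a difference of −0.06 (SE 0.0827, adjusted p = 0.953). *evla* had a difference of 0.01. *evlb* (13, 19 and 26 against 13, 11 and 17) and *vaspa* (12, 12 and 9 against 4, 11 and 15) were low, and their intervals reached past a 2-fold fall.

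Profilins load monomers onto growing ends. *pfn1* (ENSDARG00000088091, chromosome 23, 44782492 to 44787674) stood at 1716, 1940 and 1544 in WT and 1845, 1576 and 1805 in mutant libraries, with fully overlapping groups and a difference of 0.01 (SE 0.0993, adjusted p = 0.994). *pfn2* stood at 1720, 1667 and 2016 in WT and 1739, 1482 and 1666 in mutant libraries (log2 difference −0.14, SE 0.0963, adjusted p = 0.857). *pfn2* and *wwtr1* share chromosome 22, 2.88 Mb apart, and the part of that linkage in its value was not tested. *pfn2l* stood at 989, 1003 and 1041 in WT and 973, 887 and 972 in mutant libraries, so the groups did not overlap, at a difference of −0.10 that did not pass (adjusted p = 0.910). *PFN4* was too low to test (values 0 to 5).

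Cyclase-associated protein, which reloads monomers after severing, was represented by *cap1* at 824, 887 and 842 in WT and 906, 781 and 941 in mutant libraries, and by *cap2* at 623, 548 and 484 against 545, 585 and 523. Both overlapped, with differences of 0.04 and 0.00. Among the twinfilins, which bind monomers and uncap filament ends, *twf2b* stood at 241, 242 and 287 in WT and 295, 339 and 256 in mutant libraries (log2 difference 0.20, SE 0.130, adjusted p = 0.854), and *twf2a* at 314, 235 and 267 against 272, 262 and 233 (−0.08). Their relative *twf1b* stood at 112, 96 and 128 against 112, 101 and 85 (−0.17), and the groups of all 3 overlapped.

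Cofilins sever filaments. *cfl1* (ENSDARG00000021124, chromosome 14, 30455245 to 30461241) stood at 3450, 3365 and 3780 in WT and 3344, 3160 and 3294 in mutant libraries. Every mutant value was below every WT value, though mutant replicate 1 and WT replicate 2 nearly met, and the difference of −0.11 did not pass (SE 0.0819, adjusted p = 0.867; interval 0.820-fold to 1.05-fold). It was −0.06 without WT replicate 3. *cfl2*, the muscle cofilin, stood at 508, 542 and 434 in WT and 507, 513 and 483 in mutant libraries, a difference of 0.02 (SE 0.105, adjusted p = 0.986). *cfl1l* stood at 468, 472 and 372 in WT and 547, 382 and 553 in mutant libraries. Its partner in severing, *wdr1*, stood at 214, 263 and 285 in WT and 226, 179 and 273 in mutant libraries. Both overlapped, with differences of 0.16 and −0.18. The summed count of the 4 severing genes was 4718 ± 133 in WT and 4487 ± 219 in mutant libraries (n = 3 each). Every mutant sum was below every WT sum, though mutant replicate 1 (4624) and WT replicate 1 (4640) nearly met.

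Capping protein is a heterodimer of an alpha and a beta subunit, and all 3 of its genes had differences below 0 that did not pass. The beta subunit gene *capzb* (ENSDARG00000100252, chromosome 22, 97120 to 111800) stood at 892, 903 and 883 in WT and 849, 853 and 906 in mutant libraries, a difference of −0.04 (SE 0.0840, adjusted p = 0.974). It lies 38.0 Mb from *wwtr1*. The alpha subunit genes *capza1b* (814, 900 and 859 against 780, 751 and 838) and *capza1a* (698, 633 and 624 against 564, 606 and 660) overlapped between the groups, with differences of −0.12 and −0.10.

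**Figure D3:**
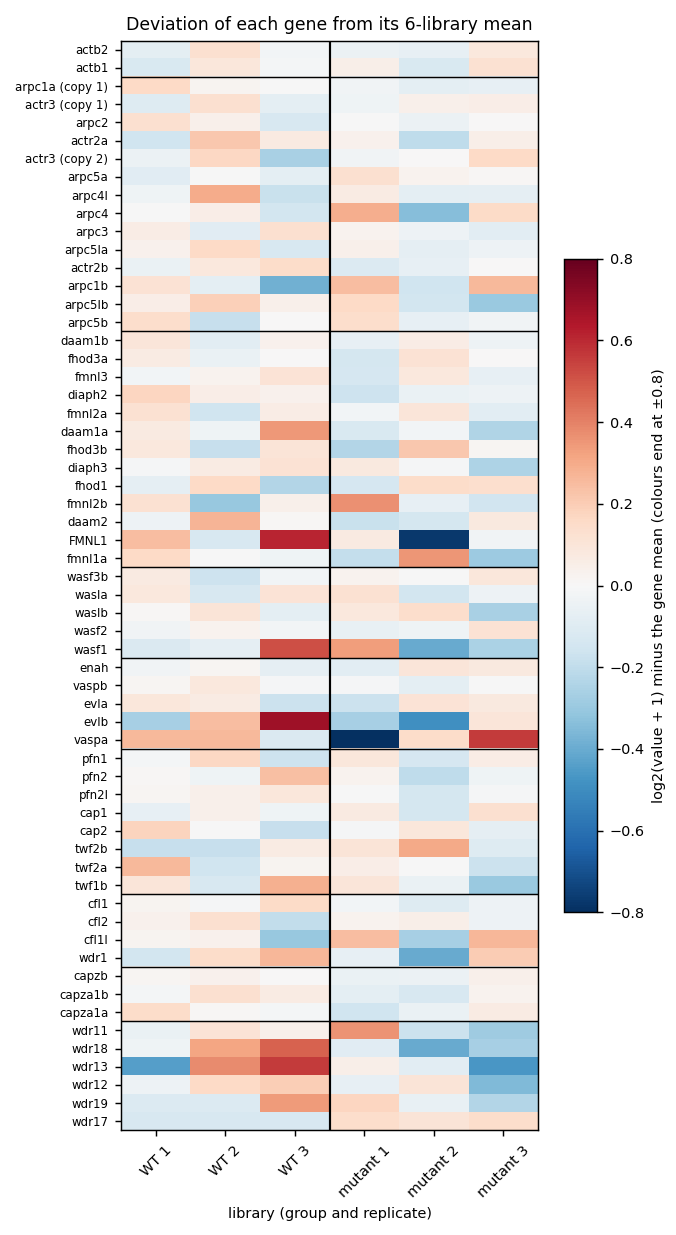
Deviation of each tested gene from its own mean over the 6 libraries, on the log2(value + 1) scale (colour), for libraries in columns and genes in rows ordered by role, with lines between roles and between genotypes. Most deviations are pale, the strong colours fall in low genes such as *FMNL1*, *evlb* and *vaspa*, and no role forms a block that changes colour at the line between WT and mutant.

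For the 55 of the 60 genes with a mean of at least 50, the median SD within a group was 0.134 on the log2 scale. It was 0.168 for the 11616 tested genes at that mean, and the sets were not matched by level. The median deviation of the 60 from their own 6-library means was 0.01, 0.04 and 0.01 in WT replicates 1 to 3 and −0.0047, −0.06 and −0.02 in mutant replicates 1 to 3. Mutant replicate 2 stood lowest, with 19 of 60 genes above their own mean, against 28 and 29 in the other 2 mutant libraries and 32 to 37 in WT. Of all 18901 genes tested, 9658 stood above their own mean in mutant replicate 2 and 9400 to 9831 in the other libraries. Genes with their lowest value of the 6 libraries in mutant replicate 2 included *actr2a*, *arpc4*, *pfn2*, *wdr1* and *FMNL1*, picked after their values were seen.

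Paralogues were also compared by the share of each in its pair, which does not change with the scaling of a library. The 13 pairs were *actb1* with *actb2* and tested genes whose symbols differ in a final a or b. The pairing went by spelling, so *arpc1a* with *arpc1b* is among the pairs although their names are those of separate genes, ARPC1A and ARPC1B. Differences in share ranged from −4.94 to 4.35 percentage points. The groups did not overlap in 2 pairs, both with an exact two-sided permutation p of 0.1, the lowest that 3 against 3 can give, and 0.65 after Benjamini-Hochberg adjustment over the 13. The share of *daam1a* in the *daam1* pair was 28.5%, 29.6% and 33.6% in WT and 28.2%, 27.8% and 26.1% in mutant libraries. The share of *twf2a* in the *twf2* pair was 56.6%, 49.3% and 48.2% in WT and 48.0%, 43.6% and 47.6% in mutant libraries. In both pairs the nearest WT and mutant libraries were less than 1 percentage point apart. The *daam1a* difference of −3.22 points was −1.71 without WT replicate 3, and the *twf2a* difference of −4.94 points was −2.33 without WT replicate 1. The share of *actb1* in its pair was 42.4% ± 0.457 in WT and 43.2% ± 1.21 in mutant libraries (SD, n = 3 each; exact p = 0.4).

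**Figure D4:**
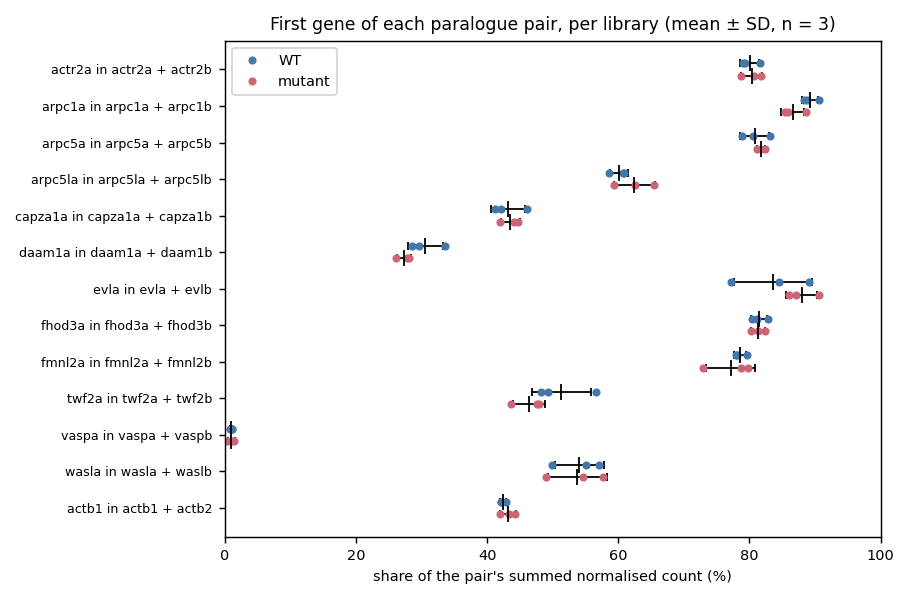
Share of the first gene of each of 13 paralogue pairs in the pair's summed normalised count (horizontal axis, in percent), with a point for each library and the mean ± SD of 3 libraries for WT and for mutant. Most pairs overlap between genotypes, and the *daam1a* and *twf2a* shares sit lower in each mutant library than in each WT library.

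The 6 WD-repeat genes have roles outside actin turnover, in ribosome assembly (*wdr12*, *wdr18*) or in cilia (*wdr19*) among others. *wdr18* (ENSDARG00000041113, chromosome 11, 13584498 to 13731792) stood at 101, 129 and 144 in WT and 97, 78 and 86 in mutant libraries. The groups did not overlap, and the log2 difference of −0.50 had the lowest unadjusted p of the 60 (0.0126; SE 0.177, adjusted p = 0.575). *wdr11* (ENSDARG00000075245, chromosome 13, 2599773 to 2695040), the one with the highest mean count, stood at 175, 196 and 187 in WT and 233, 161 and 149 in mutant libraries (log2 difference −0.07, adjusted p = 0.977). *wdr17* stood at 28 in each WT library and at 34, 33 and 34 in mutant libraries, a step of few counts that did not pass (log2 difference 0.26, adjusted p = 0.936). *wdr12*, *wdr13* and *wdr19* overlapped between the groups, with differences of −0.21, −0.33 and −0.08.

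Around these genes lie the regulators, partners and other filament proteins of the pathway, taken as 10 lists of 141 symbols, of which 120 were found in 123 rows and 111 rows were tested. Of the 111, 0 passed. An unadjusted p under 0.05 was found for 8 with a difference above 0 and 3 with one below, together 9.91% against 6.60% of all genes tested. Their median log2 difference was 0.02, and the groups did not overlap in 19, or 17.1% against 11.1%. Of these, 13 were higher in mutant hearts, 11.7% of the 111 against 5.57% of all genes tested. The other 6 were lower, 5.41% against 5.53%. The 15 tested partners of WAVE and WASP had a median of −0.03, with *cyfip1*, a WAVE complex subunit, at 1392, 1430 and 1294 in WT and 1301, 1339 and 1396 in mutant libraries. The 8 tested kinase and phosphatase genes that act on cofilin had a median of 0.04, and the phosphatase gene *ssh2a* stood at 808, 772 and 754 in WT and 836, 897 and 826 in mutant libraries (log2 difference 0.13, adjusted p = 0.856).

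Other lists hold proteins that remodel, cap or bundle existing filaments. *gsna*, a gelsolin that severs and caps filaments, had the lowest p of the 111 rows and stood at 1526, 1440 and 1273 in WT and 1783, 1873 and 1818 in mutant libraries. Every mutant value was above every WT value (log2 difference 0.37, SE 0.0882, unadjusted p = 0.000801, adjusted p = 0.275). *marcksl1b*, which encodes an actin-binding membrane protein, stood at 1348, 1335 and 1445 in WT and 1110, 1120 and 1091 in mutant libraries (log2 difference −0.31, SE 0.0816, adjusted p = 0.323). *fscn1a*, the bundler fascin, stood at 315, 343 and 382 in WT and 297, 234 and 260 in mutant libraries (−0.40, adjusted p = 0.496). Each of these 3 genes separated by genotype, and they were singled out after their values were seen. They do not show the balance of the 111 rows, where an unadjusted p under 0.05 fell to 8 above 0 and 3 below. Among those above 0, the WAVE and WASP partner *baiap2b* stood at 146, 175 and 123 in WT and 224, 195 and 184 in mutant libraries (log2 difference 0.45, SE 0.152, adjusted p = 0.563). The median of the 15 other nucleators was 0.11, of the 6 thymosins and related genes 0.05 and of the 6 other actins 0.07. The median of the 14 bundling and crosslinking rows was 0.10, of the 9 gelsolin rows 0.03, of the 12 rows for coronins and branch regulators 0.02 and of the 8 rows for tropomodulins and tropomyosins −0.02.

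The highest mean counts of these 7 lists were in *flna*, *svila*, *coro1ca*, *tpm4a*, *tmsb4x*, *actc1a* and *lmod2b*. *flna*, the crosslinker filamin A, stood at 4894, 5173 and 4989 in WT and 5254, 5664 and 5452 in mutant libraries (log2 difference 0.12, adjusted p = 0.857). *actc1a*, a cardiac-type actin gene, stood at 28635, 26670 and 24045 in WT and 26392, 24731 and 28451 in mutant libraries (0.01, adjusted p = 0.997). *lmod2b*, a leiomodin that nucleates actin in sarcomeres, stood at 3540, 3342 and 3011 in WT and 3738, 3582 and 4027 in mutant libraries (0.20, unadjusted p = 0.0402, adjusted p = 0.748). The groups did not overlap for *flna* and *lmod2b*. *svila*, which encodes the membrane-linked supervillin, stood at 3488, 3119 and 3164 in WT and 2998, 3494 and 2934 in mutant libraries. *coro1ca*, a coronin, stood at 894, 740 and 850 in WT and 846, 797 and 923 in mutant libraries. The groups of both overlapped, as did those of the next pair. The tropomyosin gene *tpm4a* stood at 24475, 21355 and 20602 in WT and 21814, 21880 and 21904 in mutant libraries. The monomer-sequestering thymosin gene *tmsb4x* stood at 5661, 5213 and 5069 in WT and 5535, 4939 and 5418 in mutant libraries. Rounded log2 differences of these 4 genes ran from −0.05 to 0.05.

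**Figure D5:**
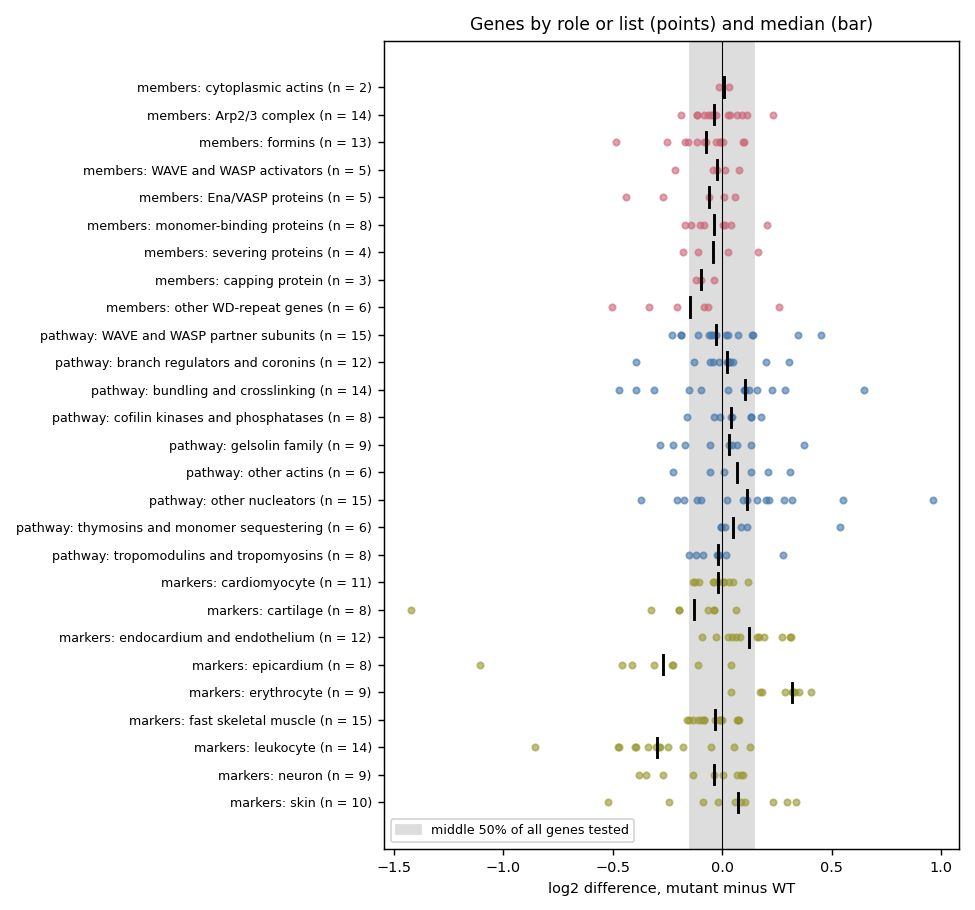
Log2 difference (mutant minus WT, horizontal axis) of each tested gene as a point, by role for the actin genes (red), by 9 of the 10 pathway lists (blue) and by cell type marker list (olive), with the median of each as a black bar; the grey band holds the middle 50% of all genes tested. The medians of the 9 roles stay inside the band, and those of the epicardium, erythrocyte and leukocyte marker lists lie outside it.

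Cell type markers show what the pools held. Cardiomyocyte genes summed to 397380 to 467337 in WT and 398135 to 443462 in mutant libraries, with a median log2 difference of −0.02 over 11 rows, and 0 of the 11 stood at 0 in every library. Endocardial and endothelial markers summed to 11282 to 12583 in WT and 13212 to 14358 in mutant libraries, with 10 of 12 above 0 and a median of 0.12. Their groups did not overlap in 4 of the 12, all higher in mutant hearts, or 33.3% against 11.1% of all genes tested. Epicardial markers had 7 of 8 below 0 and a median of −0.27. Their sums were 31222 to 46529 in WT and 35058 to 42417 in mutant libraries. Most of each sum was the keratin gene *krt4*, at 27512 to 42967 in WT and 32095 to 39473 in mutant libraries. *krt4* ranked the 6 libraries in the same order as *krt5*, the skin marker with the highest mean count. *krt5* stood at 8298, 9913 and 6403 in WT and 8736, 7697 and 9673 in mutant libraries. *krt4* may therefore not mark the epicardium here, and the part of skin in its values was not tested. *krt4* was the 1 row above 0 (log2 difference 0.04), so the sums say little about the other 7. The groups did not overlap in 3 of the 8, or 37.5% against 11.1% of all genes tested. All 3 were lower in mutant hearts. Erythrocyte markers had 9 of 9 above 0 and a median of 0.32, with sums of 84183 to 95724 in WT and 78013 to 134577 in mutant libraries. Above their own 6-library mean stood 9, 0 and 9 of the 9 in mutant replicates 1 to 3, and 3, 3 and 0 in WT replicates 1 to 3. The lowest sum, 78013, was that of mutant replicate 2. Cartilage, skin, fast skeletal muscle and neuron markers were present, with medians of −0.13, 0.07, −0.03 and −0.04. Their sums varied between replicates of a group. Cartilage sums were 5185 to 9804 in WT and 5207 to 7785 in mutant libraries, and skin sums 14906 to 22233 and 17561 to 21577. Fast skeletal muscle sums were 38129 to 67996 in WT and 38929 to 54167 in mutant libraries, and neuron sums 1185 to 1270 and 965 to 1246. The actin genes are used by each of these cell types, and the part of cell type make-up in their values was not tested.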

How the data were processed

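Total RNA of the 6 heart pools was extracted, 6.5 ng entered library preparation and libraries were read as single ends of 75 nt, per the labels. STAR 2.4.0a and featureCounts 1.4.5-p1 were used with danRer10 (GRCz10), per the submitters' processing notes; no source used here gives the strand setting or the scaling method. The deposited values are a score: read counts the authors scaled between libraries and rounded. In 3 libraries some whole numbers up to 100 are absent (5 to 12 per library), so no count model was run. Ribosomal RNA took 40.4% to 43.9% of each total. Coordinates and symbols are those of the table, and 15 of the 64 rows overlap another gene, 8 of them one on the opposite strand, so their reads may be mixed.

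Genes reaching 10 in 3 or more libraries entered limma 3.58.1 (R 4.3.3) as log2(value + 1), with the variance allowed to follow the mean. P-values were adjusted by Benjamini-Hochberg over every gene tested. The fit was also run on simulated data, as a check of the code on which no result given here rests. Paralogue shares used exact permutation (scipy 1.17.1). The members and lists were chosen with earlier results of these data known. Values in every library are given for *wwtr1*, members with a p under 0.05, the highest mean in each role or reported pathway list, *actb1* and *actb2*; other genes were named after their values were seen. 1 of the 10 pathway lists enters the counts over all lists and is not reported on its own here. Same-numbered replicates did not deviate together (r = 0.0217, −0.0224 and −0.0178), so they were not paired. Whether the biological replicates came from separate clutches is not stated, and p-values measure the spread between these pools.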

Additional observations from a re-analysis of the deposited data

How the results depend on the processing

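Under the 17 other settings of the fit (pseudocount, value filter, scaling, variance moderation, library weights, replicate block and each library left out), 0 of the actin and WD-repeat genes tested passed. Their lowest adjusted p ranged from 0.437 to 0.858, and from 0.505 to 1 without the 6 WD-repeat genes. Their median difference stayed between −0.06 and −0.03. The number with an unadjusted p under 0.05 was 2, but 1 with equal sums without ribosomal RNA and 1 without the 6 WD-repeat genes, and 0 to 3 with each library left out (0 without WT replicate 3). Of all genes, 7 passed; 68 passed with equal sums without ribosomal RNA, 22 with robust variance moderation, 0 without the variance trend (where 1176 had an unadjusted p under 0.05), 15 with the replicate block, and 5 to 46 with each library left out (11 without WT replicate 1, 46 without WT replicate 2). Without the trend *wwtr1* kept its difference of −1.72 (adjusted p = 0.343). Of 204 differences of the 12 named genes, 12 changed sign, 2 of them for *wdr11*. With library weights *actb2* was at 0.0015. With each library left out, *actb2* ranged from −0.064 to 0.044, *actb1* from −0.023 to 0.096, *daam1b* from −0.080 to 0.012, *pfn1* from −0.070 to 0.094 and *wdr11* from −0.26 to 0.060. No difference in paralogue share moved by more than 1 SD, taken as the root mean square of the WT and mutant SDs. Low counts limit *fmnl1a*, *wasf1*, *evlb*, *vaspa* and *wdr17*, whose means were under 50 and whose intervals reached past a 1.5-fold change.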
